A study of Mus musculus with 2 samples.

Results

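Ifitm1, Ifitm2, Ifitm3 and Ifitm6 were described across the cell classes of mouse bone marrow. The 4 members were chosen by name from the 25943 genes of the deposited table, and all 4 were measured. 1 library came from bone marrow of mice after middle cerebral artery occlusion (MCAO, the blocking of a large brain artery as a model of stroke), and 1 library came from control mice. Both groups were male WT mice aged 8 to 10 weeks. All marrow cells were captured in microwells on the BD Rhapsody system, which marks each captured mRNA with a barcode for its cell and with a molecular identifier (UMI) for counting. The time after occlusion, the number of mice behind each library and the handling of the control mice are not stated in the sources used here.

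Ifitm genes encode small interferon-induced transmembrane proteins. These proteins sit in the plasma membrane and in the membranes of endosomes, where they hinder the fusion of enveloped viruses with the cell. IFITM1 lies mostly at the cell surface, whereas IFITM2 and IFITM3 lie mostly in endosomes and lysosomes. Type I interferon raises their transcription through the receptor IFNAR and the kinases JAK1 and TYK2, and many cells also hold a basal level of them. Bone marrow is where neutrophils mature, through promyelocytes, pre-neutrophils and immature neutrophils to the mature cells that leave for the blood.

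The MCAO library held 5398 cells with 35401492 UMIs and a median of 4952 per cell, and the control library held 5212 cells with 25886279 UMIs and a median of 3344 per cell. The cell names carry short running codes and no barcode sequence, and 5120 of these codes were used in both libraries. With 1 library in each group no test between the conditions was possible. Bracketed ranges are 95% intervals for counting error alone, and no difference between the libraries has a replicate check. A level is the summed UMIs of a gene per 10000 UMIs of all cells of a class. Cells were clustered without the Ifitm genes, and the clusters were named from markers as cell-like classes. 13 classes held at least 50 cells in each library, of which 1, cluster 14, was left unnamed (led by Atp1b2 and Car1). Natural killer cell-like cells (41 MCAO and 35 control cells) and eosinophil-like cells (25 and 32 cells, with plasma cell genes among their leading genes) were too few to compare.

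The 4 genes lie side by side on mouse chromosome 7 (mm10, GENCODE annotation), all as protein-coding genes. Ifitm2 spans chr7:140954837-140955987 on the minus strand, Ifitm1 spans chr7:140967221-140969825 on the plus strand, Ifitm3 spans chr7:141009586-141010770 on the minus strand and Ifitm6 spans chr7:141015699-141017924 on the minus strand. The promoter windows of the 4 genes are shown because the members differed in how they were spread over the cell classes and in how they compared with other interferon-induced genes. The windows are RefSeq sequences (GRCm38.p6) of 300 bases, 250 before and 50 after the annotated start, written 5′ to 3′ on the strand of the gene. They cover chr7:140967826-140968125 (plus strand) for Ifitm1, chr7:140955912-140956211 (minus strand) for Ifitm2, chr7:141010695-141010994 (minus strand) for Ifitm3 and chr7:141016843-141017142 (minus strand) for Ifitm6. Capitals mark matches to the letters GAAANNGAAA, a core of the interferon-stimulated response element (ISRE), on either strand.
Ifitm1: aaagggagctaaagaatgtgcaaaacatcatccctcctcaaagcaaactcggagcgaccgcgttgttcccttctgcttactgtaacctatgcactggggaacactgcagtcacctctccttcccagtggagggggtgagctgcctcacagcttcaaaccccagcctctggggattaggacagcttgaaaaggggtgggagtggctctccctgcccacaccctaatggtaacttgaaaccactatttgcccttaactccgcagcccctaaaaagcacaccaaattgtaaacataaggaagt
Ifitm2: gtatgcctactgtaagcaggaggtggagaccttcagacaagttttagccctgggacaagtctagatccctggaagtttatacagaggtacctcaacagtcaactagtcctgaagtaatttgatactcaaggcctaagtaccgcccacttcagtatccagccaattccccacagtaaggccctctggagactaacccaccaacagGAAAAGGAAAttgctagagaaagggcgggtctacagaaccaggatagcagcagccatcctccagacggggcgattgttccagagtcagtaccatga
Ifitm3: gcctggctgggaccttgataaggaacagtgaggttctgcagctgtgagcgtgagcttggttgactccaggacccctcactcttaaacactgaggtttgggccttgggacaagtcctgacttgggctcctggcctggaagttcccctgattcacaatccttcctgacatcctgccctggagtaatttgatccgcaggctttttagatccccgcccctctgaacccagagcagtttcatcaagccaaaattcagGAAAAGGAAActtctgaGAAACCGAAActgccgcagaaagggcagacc
Ifitm6: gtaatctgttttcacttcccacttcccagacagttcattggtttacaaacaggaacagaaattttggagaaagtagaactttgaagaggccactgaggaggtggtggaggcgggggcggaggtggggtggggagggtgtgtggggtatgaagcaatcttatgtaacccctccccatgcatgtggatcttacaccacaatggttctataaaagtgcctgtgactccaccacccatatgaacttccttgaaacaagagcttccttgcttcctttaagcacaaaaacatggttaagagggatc
The ISRE-like letters occurred at positions 205 to 214 of the Ifitm2 window, before the annotated start, and at positions 253 to 262 and 270 to 279 of the Ifitm3 window, just after it, counted from 1 at the 5′ end. They did not occur in the Ifitm1 and Ifitm6 windows. Of 32851 mouse promoter windows of this length, 1131 (3.44%) held them. The letters TTCNNNGAA, a core of the gamma-activated site (GAS) that reads the same on both strands, occurred at positions 264 to 272 of the Ifitm3 window, where they overlap the second ISRE-like match, and at positions 241 to 249 of the Ifitm6 window, and 2726 windows (8.30%) held them. The RefSeq starts of Ifitm1 and Ifitm6 lie inside the gene spans given above, so starts further upstream are outside these windows.

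Parts of these transcripts are shared with other genes, which limits how surely a read can be given to 1 of them. Of the stretches of 50 bases in the Ifitm2 transcript, 48.5% also occur in transcripts of other genes, mostly in Gm45717, a gene model that overlaps Ifitm2 on the same strand. The share was 10.0% for Ifitm3, 6.36% for Ifitm1 and 0 for Ifitm6. How reads that match several genes were counted is not stated in the sources used here, so values of Ifitm2 are the least certain.

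Each member had its own spread over the marrow, and each was high in at least 1 class of granulocytes or monocytes. Ifitm1 had its highest levels in basophil or mast cell-like cells and mature neutrophil-like cells, Ifitm2 in mature neutrophil-like cells, Ifitm3 in monocyte-like cells and Ifitm6 in immature neutrophil-like cells, in both libraries. The plot of levels by cell class shows these orders.

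Ifitm1 stood at 15.2 [13.7-16.8] UMIs per 10000 in MCAO and 12.4 [11.3-13.7] in control basophil or mast cell-like cells, a class led by Prss34, Mcpt8 and Cpa3. Mature neutrophil-like cells came next, with 9.77 [9.47-10.1] in the MCAO and 7.33 [6.999-7.68] in the control library, and unnamed cluster 14 followed with 1.59 and 1.47. These 3 classes were apart from each other, in that both libraries gave the same order and the intervals did not overlap. In the other 10 classes Ifitm1 was low, and no neighbours in the order of levels were apart. Macrophage-like cells had 0.679 in the MCAO and 1.31 in the control library, and promyelocyte-like cells had 0.935 and 0.569. Immature neutrophil-like cells had 0.715 in the MCAO and 0.710 in the control library, and pre-neutrophil-like cells 0.405 and 0.250. Monocyte-like cells had 0.525 in the MCAO and 0.330 in the control library, and plasmacytoid dendritic cell-like cells 0.844 and 0.365. B cell-like cells had 0.780 in the MCAO and 0.380 in the control library, pro-B or pre-B-like cells 0.496 and 0.325, T cell-like cells 0.630 and 0.305, and erythroid-like cells 0.556 and 0.392.

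Ifitm2 was highest in mature neutrophil-like cells, at 11.8 [11.5-12.2] in the MCAO and 11.2 [10.8-11.7] in the control library. Monocyte-like cells (6.91 in MCAO, 5.58 in control) and immature neutrophil-like cells (5.15 in MCAO, 4.85 in control) followed and were apart from each other. Basophil or mast cell-like cells (4.16 in MCAO, 4.60 in control), macrophage-like cells (4.02 in MCAO, 4.34 in control), promyelocyte-like cells (3.98 in MCAO, 4.01 in control), cluster 14 (3.58 in MCAO, 3.69 in control) and pre-neutrophil-like cells (3.46 in MCAO, 3.12 in control) followed, and none of these 5 was apart from the class just above it. Plasmacytoid dendritic cell-like cells had 2.84 in the MCAO and 2.12 in the control library, and erythroid-like cells 2.03 and 1.56. The lymphoid classes were lowest, with 1.98 and 0.967 in MCAO and control T cell-like cells, 1.70 and 1.10 in B cell-like cells, and 1.67 in MCAO against 1.23 in control pro-B or pre-B-like cells.

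Ifitm3 was highest in monocyte-like cells, at 35.1 [34.7-35.6] in the MCAO and 43.4 [42.8-44.1] in the control library. Mature neutrophil-like cells (25.7 in MCAO, 32.4 in control) and immature neutrophil-like cells (23.8 in MCAO, 32.1 in control) came next and were not apart from each other in both libraries. Macrophage-like cells had 18.9 in the MCAO and 27.3 in the control library, pre-neutrophil-like cells 12.7 and 17.8, and plasmacytoid dendritic cell-like cells 11.7 and 12.8. The other classes were lower. Erythroid-like cells had 7.21 in the MCAO and 9.79 in the control library, cluster 14 had 6.78 and 9.25, and promyelocyte-like cells had 6.79 and 9.07. B cell-like cells had 5.06 in the MCAO and 6.07 in the control library, pro-B or pre-B-like cells 4.98 and 5.88, basophil or mast cell-like cells 5.47 and 5.08, and T cell-like cells 4.58 in each.

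Ifitm6 was highest in immature neutrophil-like cells, at 77.2 [76.5-77.9] in the MCAO and 61.6 [61.0-62.3] in the control library. Macrophage-like cells (43.8 in MCAO, 23.4 in control), mature neutrophil-like cells (40.8 in MCAO, 22.7 in control) and pre-neutrophil-like cells (28.3 in MCAO, 23.4 in control) followed, and these 3 were not apart from each other in both libraries. Monocyte-like cells had 14.3 in the MCAO and 11.6 in the control library. In the remaining 8 classes the levels lay between 4.44 in basophil or mast cell-like cells and 8.95 in B cell-like cells of the MCAO library, and between 4.01 in cluster 14 and 6.26 in B cell-like cells of the control library.

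**Figure D1:**
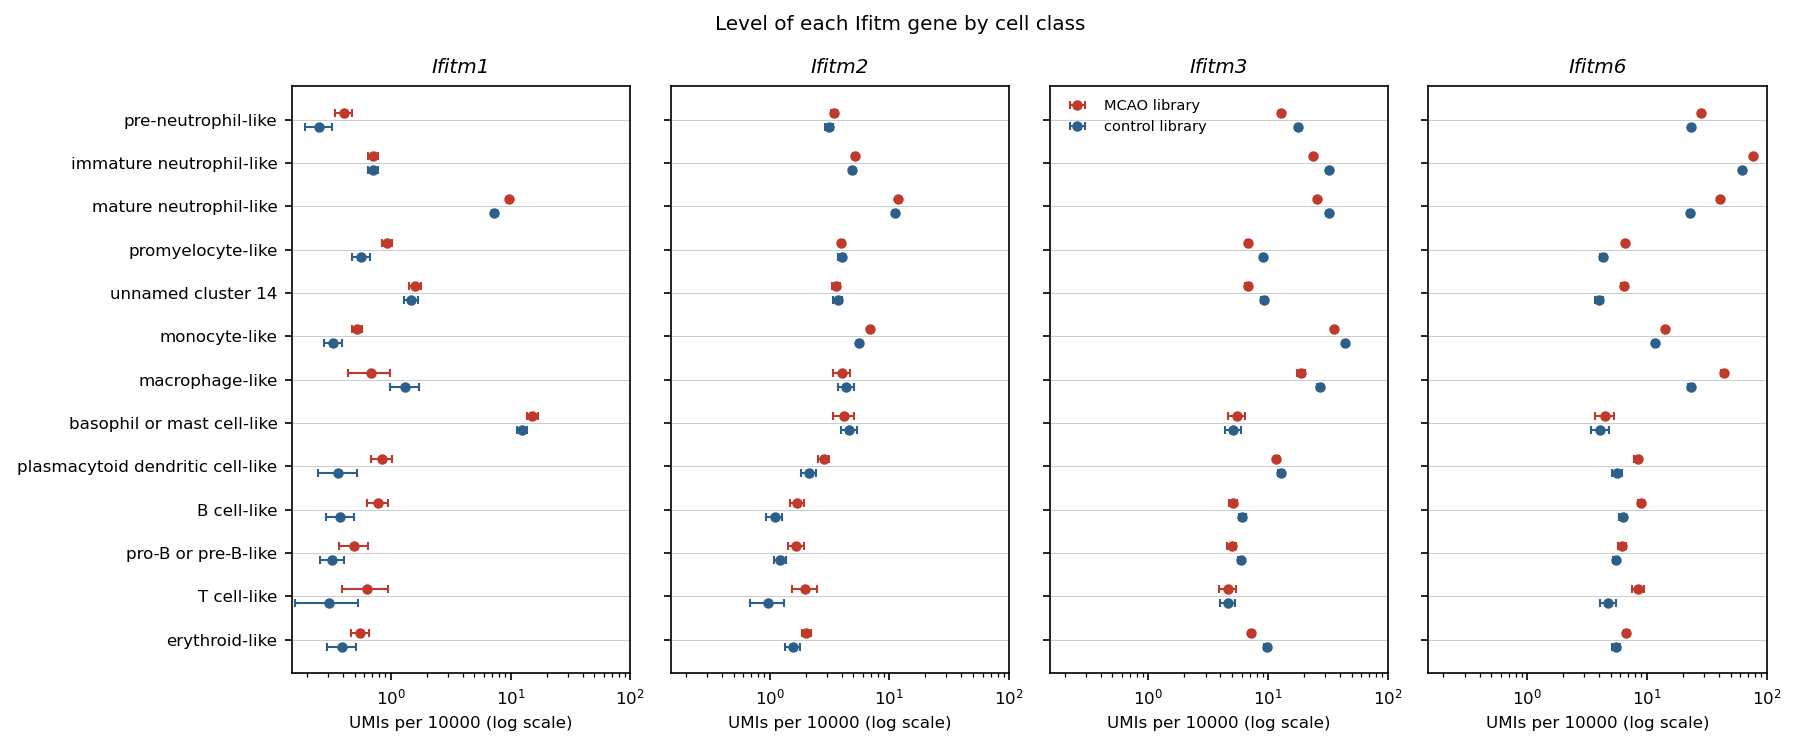
Level of each Ifitm gene in the 13 compared classes, in UMIs per 10000 on a log scale, for the MCAO library (red, upper point) and the control library (blue, lower point), with 95% counting intervals. Ifitm1 stands apart in basophil or mast cell-like cells (15.2 in MCAO, 12.4 in control) and mature neutrophil-like cells (9.77 in MCAO, 7.33 in control), whereas Ifitm6 is highest in immature neutrophil-like cells (77.2 in MCAO, 61.6 in control).

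UMIs of abundant neutrophil genes were also found in cells that should lack them. Ngp was at 468 in MCAO and 439 in control immature neutrophil-like cells, against 36.9 and 33.7 in B cell-like cells. The 12 markers of immature neutrophils, which include Lyz2 and Cybb, were all above 0 in every compared class. Whether each of the 12 is confined to neutrophils was not tested. They summed to 1506 in MCAO and 1485 in control immature neutrophil-like cells, against 148 in MCAO and 132 in control B cell-like cells. Ifitm6 came to 5.13 UMIs per 100 UMIs of that list in MCAO and 4.15 in control immature neutrophil-like cells. The ratio was similar or higher in MCAO and control B cell-like cells (6.03 and 4.72), T cell-like cells (6.18 and 5.84), erythroid-like cells (6.39 and 5.47) and basophil or mast cell-like cells (6.36 and 6.79). These ratios were above those of mature (4.92 and 3.63) and pre-neutrophil-like cells (2.12 and 1.70) of the MCAO and control libraries. How much of the Ifitm6 level in these classes came from free RNA was not tested. Ifitm1 in basophil or mast cell-like cells went against this pattern, at 18.0 UMIs in the MCAO and 15.6 in the control library per 100 UMIs of the 12 mature neutrophil markers, against 1.37 and 1.10 in mature neutrophil-like cells themselves. In B cell-like cells Ifitm1 came to 1.45 in the MCAO and 0.738 in the control library per 100 UMIs of the mature list. Monocyte-like cells (1.05 in MCAO, 0.792 in control), promyelocyte-like cells (1.24 in MCAO, 0.895 in control) and plasmacytoid dendritic cell-like cells (1.77 in MCAO, 0.885 in control) had similar ratios, and the part of free RNA in the low Ifitm1 levels of these 4 classes was not tested. The macrophage-like class, led by C1qb, C1qc and C1qa, also held many neutrophil transcripts. Its immature neutrophil list summed to 938 in the MCAO and 627 in the control library, with Ngp at 282 and 165. Ifitm6 came to 4.67 and 3.73 UMIs per 100 of that list. The part of these neutrophil transcripts in the macrophage-like levels of Ifitm6 was not tested.

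Within the neutrophil-like cells the 4 members followed different courses over 5 clusters. These were 1 pre-neutrophil-like cluster (cluster 6, led by Orm1, Inhba and Fcnb), 2 immature clusters (cluster 0, led by Ltf, and cluster 5, led by Thbs1, Mmp8 and Retnlg) and 2 mature clusters (cluster 2, led by Stfa2 and Stfa3, and cluster 1, led by Il1b, Ifit3 and Ifit3b). Cluster 5 held as many leading markers of mature as of immature neutrophils (3 each) and was placed by marker score. The order of the clusters is an arrangement by markers and not a measured time.

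Ifitm1 was low until the mature clusters. It stood at 0.405 in MCAO and 0.250 in control cells of cluster 6, 0.532 and 0.335 in cluster 0, and 1.51 and 1.34 in cluster 5. In mature cluster 2 it reached 6.71 in MCAO and 2.33 in control cells, and in mature cluster 1 it reached 17.2 in MCAO and 7.90 in control cells. Ifitm2 also had its lowest value in cluster 6 (3.46 in MCAO, 3.12 in control) and its highest in cluster 1 (14.5 in MCAO, 11.4 in control), with 4.72 and 3.82 in MCAO and control cells of cluster 0, 7.01 and 6.59 in cluster 5, and 10.7 and 9.34 in cluster 2. Ifitm3 showed no such order, with 12.7 in MCAO and 17.8 in control cells of cluster 6, 21.8 and 31.0 in cluster 0, 32.9 and 34.0 in cluster 5, 22.3 and 25.1 in cluster 2, and 33.9 and 33.2 in cluster 1. Ifitm6 peaked in cluster 0, where it stood at 80.6 in MCAO and 67.5 in control cells and was among the 10 leading genes. It was lower in each later cluster, at 62.7 in MCAO and 51.8 in control cells of cluster 5, 49.2 and 40.4 in cluster 2, and 20.4 and 20.7 in cluster 1, after 28.3 and 23.4 in cluster 6. Ifitm1 and Ifitm6 were therefore at their highest in different neutrophil clusters of both libraries.

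**Figure D2:**
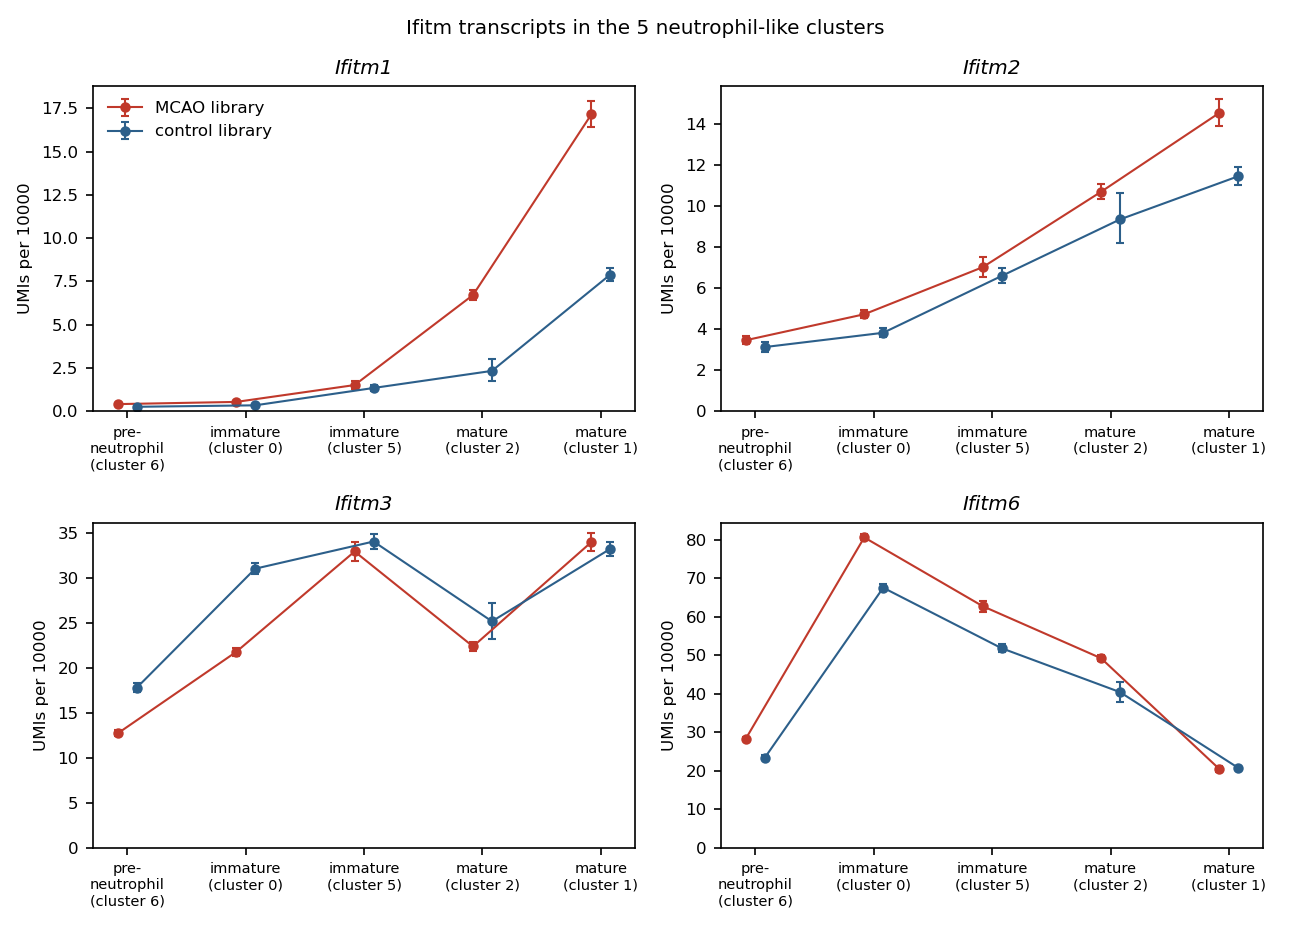
Level of each Ifitm gene in UMIs per 10000 in the 5 neutrophil-like clusters, arranged by markers and not by time, with 95% counting intervals, for the MCAO library (red) and the control library (blue). Ifitm1 and Ifitm2 are highest in mature cluster 1 (17.2 and 7.90 for Ifitm1 in MCAO and control), Ifitm6 is highest in immature cluster 0 (80.6 in MCAO, 67.5 in control), and the control line lies above the MCAO line for Ifitm3 in cluster 0 (21.8 in MCAO, 31.0 in control).

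Between the libraries, Ifitm3 was mostly lower and Ifitm6 mostly higher in MCAO cells. Ifitm3 was lower in the MCAO library in 11 of the 13 classes, with the interval of the ratio below 1 in all 11, and the log2 ratios of MCAO to control over the 13 classes had a median of -0.33. Ifitm6 was higher in the MCAO library in 13 of 13 classes, with the interval above 1 in 12, and a median log2 ratio of 0.51. Ifitm1 was higher in 12 of 13 classes (interval above 1 in 9, median 0.58) and Ifitm2 in 9 of 13 (interval above 1 in 9, median 0.15). The classes share the free RNA of their library and are not separate replicates of the condition. A difference is called here where it is past 1.5-fold (log2 of 0.58).

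In mature neutrophil-like cells, of which the MCAO library held 1261 and the control library 1048, 1 of the 4 members was past 1.5-fold and it was higher, where 6.86% of 6661 measured genes were higher and 8.65% lower in the MCAO library. This was Ifitm6, at 40.8 [40.1-41.4] in MCAO and 22.7 [22.1-23.3] in control cells, a ratio of 1.80 [1.74-1.85]. Ifitm1 had a ratio of 1.33 [1.26-1.41], Ifitm2 of 1.05 [1.00-1.10] and Ifitm3 of 0.795 [0.772-0.818]. The class was made up of different clusters in the 2 libraries. Cluster 2 held 63.4% of the MCAO and 9.26% of the control cells of the class, and cluster 1 held 36.6% of the MCAO and 90.7% of the control cells.

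Within the clusters the ratios differed from those of the class. In cluster 1 (462 MCAO and 951 control cells) Ifitm1 stood at 17.2 in MCAO and 7.90 in control cells, a ratio of 2.17 [2.04-2.32], and it was the 1 member of 4 past 1.5-fold, where 5.12% of 5272 genes were higher and 6.47% lower. Ifitm6 was at 20.4 in MCAO and 20.7 in control cells of cluster 1 (ratio 0.986 [0.939-1.03]), and Ifitm3 at 33.9 and 33.2 (ratio 1.02 [0.984-1.06]). Ifitm2 had a ratio of 1.27 [1.19-1.35] there. In cluster 2 (799 MCAO and 97 control cells) Ifitm1 stood at 6.71 in MCAO and 2.33 in control cells, a ratio of 2.89 [2.22-3.81] that rests on 58 control UMIs. It was again the 1 member past 1.5-fold, where 17.4% of 5038 genes were higher and 11.4% lower. Ifitm6 had a ratio of 1.22 [1.14-1.30] in cluster 2, Ifitm2 of 1.14 [1.00-1.31] and Ifitm3 of 0.889 [0.819-0.966]. The Ifitm1 ratio was thus larger in each of these 2 clusters than over the class, and the Ifitm6 ratio was smaller in each. The class value of Ifitm6 was no longer past 1.5-fold when the Ifitm genes were kept in the clustering (log2 0.39) or when cluster 5 was counted as mature (0.35), while that of Ifitm1 then was (0.73 and 0.78).

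A finer clustering gave 5 mature clusters, of which 4 held at least 50 cells of each library. Ifitm1 was higher in MCAO cells in all 4, with ratios of 2.22 [2.04-2.42] in finer cluster 3 (led by Il1b and Ifit3), 1.62 [1.45-1.81] in finer cluster 5 (led by Il1b and H2-Q10, with Ifitm1 among its 10 leading genes), 1.42 [1.20-1.68] in finer cluster 10 (led by Clec4d and Il1f9) and 1.60 [1.09-2.43] in finer cluster 12 (led by Stfa3 and Asprv1). Its levels were 20.6 in MCAO and 9.25 in control cells of finer cluster 3, 18.7 and 11.5 in finer cluster 5, 5.11 and 3.61 in finer cluster 10, and 2.60 and 1.63 in finer cluster 12. Ifitm6 was at 15.5 in MCAO and 16.1 in control cells of finer cluster 3 (ratio 0.962 [0.887-1.04]), but at 20.2 and 11.1 in finer cluster 5, where its ratio of 1.82 [1.63-2.04] was as large as over the whole class. It was at 35.7 in MCAO and 32.0 in control cells of finer cluster 10 (ratio 1.12 [1.05-1.19]), and at 61.0 and 51.2 in finer cluster 12 (ratio 1.19 [1.11-1.28]). Ifitm3 had ratios of 1.10 [1.04-1.16], 0.852 [0.786-0.925], 1.14 [1.07-1.21] and 0.928 [0.839-1.03] in finer clusters 3, 5, 10 and 12.

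**Figure D3:**
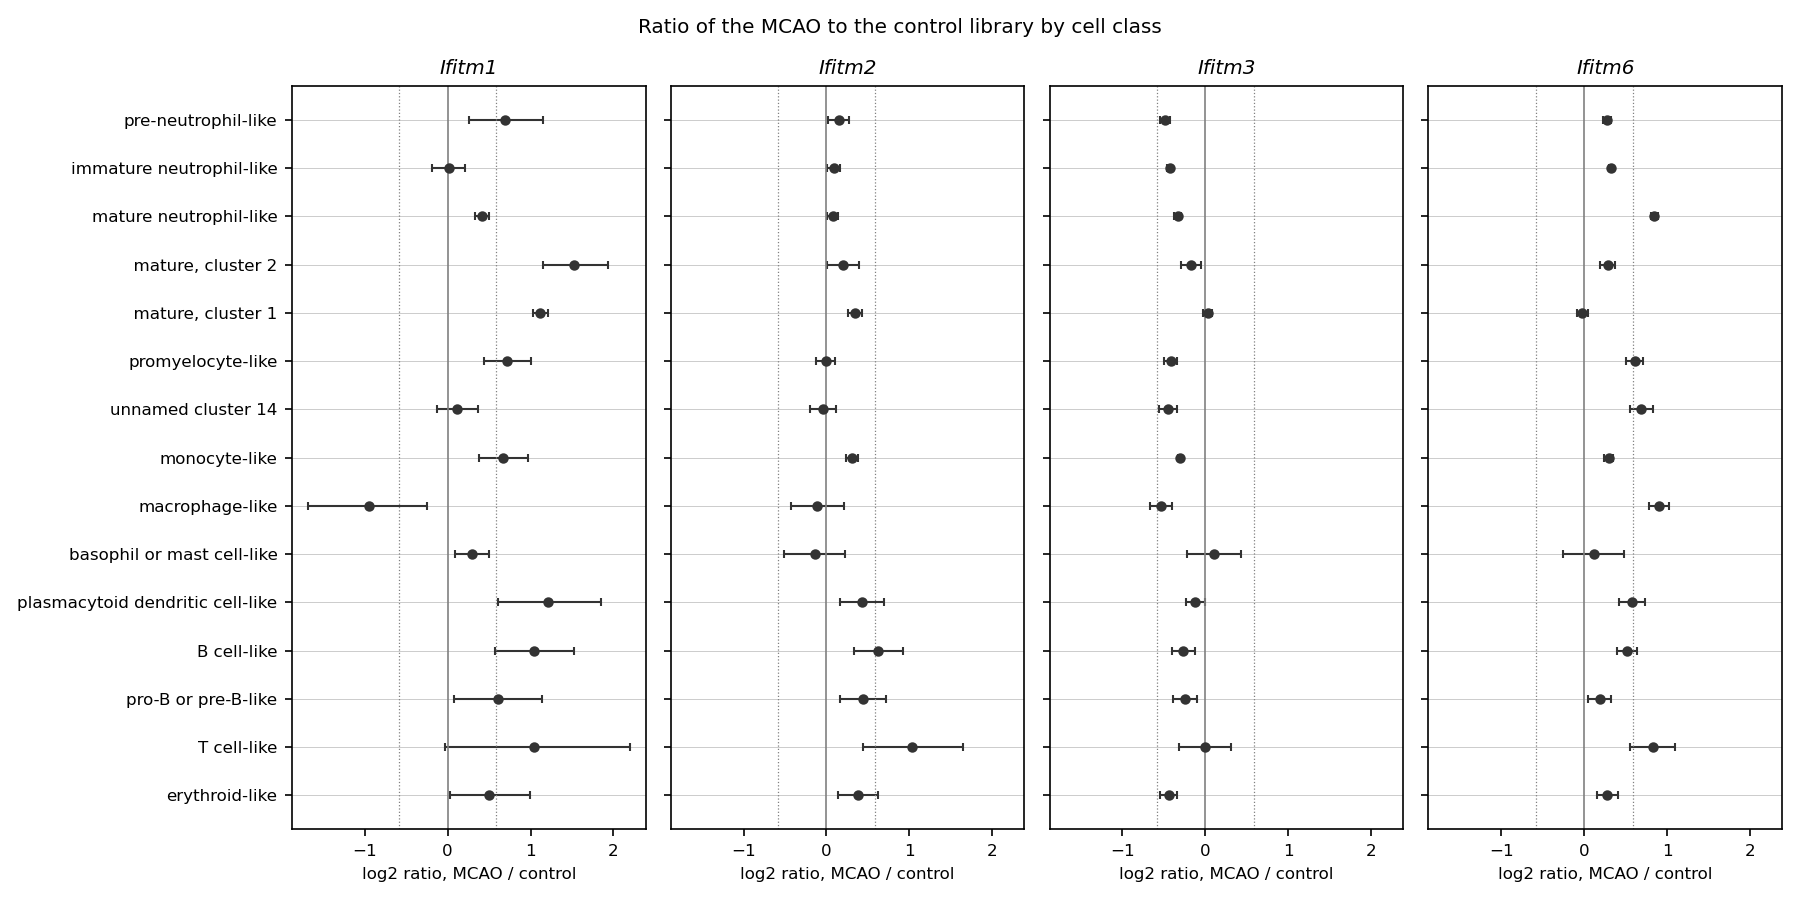
Log2 ratio of the MCAO library to the control library for each Ifitm gene in the 13 compared classes and in mature clusters 2 and 1, with 95% counting intervals. Dotted lines mark 1.5-fold. Ifitm1 lies past the dotted line in mature cluster 1 (log2 1.12) and cluster 2 (1.52) but not in the whole mature class (0.41), and Ifitm6 lies at 0.85 in the class and at -0.02 in cluster 1.

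In immature neutrophil-like cells 0 of 4 members were past 1.5-fold, where 2.33% of 8205 genes were higher and 3.42% lower. Ifitm6 had a ratio of 1.25 [1.24-1.27], Ifitm3 of 0.742 [0.726-0.759], Ifitm2 of 1.06 [1.01-1.12] and Ifitm1 of 1.01 [0.876-1.16]. Cluster 0 held 78.6% of the MCAO and 56.7% of the control cells of this class, and within it Ifitm1 had a ratio of 1.59 [1.27-2] and Ifitm3 of 0.702 [0.683-0.721]. In cluster 5 Ifitm3 had a ratio of 0.967 [0.929-1.01]. In pre-neutrophil-like cells 1 of 4 members was past 1.5-fold, where 2.72% of 7828 genes were higher and 3.05% lower. This was Ifitm1, at 0.405 [0.344-0.473] in MCAO and 0.250 [0.191-0.322] in control cells, its lowest level among the compared classes. After thinning to an equal number of UMIs per cell, it was seen in 3.69% of MCAO and 5.00% of control cells. These shares were not higher in MCAO cells. They were near the 4% of MCAO and 4.17% of control B cell-like cells, a class that should lack the transcript. In pre-neutrophil-like cells Ifitm3 had a ratio of 0.715 [0.686-0.745] and Ifitm6 of 1.21 [1.17-1.25].

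In monocyte-like cells, 820 from the MCAO and 539 from the control library, Ifitm3 stood at 35.1 in MCAO and 43.4 in control cells, a ratio of 0.809 [0.794-0.825]. Ifitm2 had a ratio of 1.24 [1.18-1.30] and Ifitm6 of 1.23 [1.19-1.27]. Ifitm1 was the 1 member of 4 past 1.5-fold, at a low 0.525 in MCAO and 0.330 in control cells (ratio 1.59 [1.30-1.95]), where 2.98% of 10070 genes were higher and 3.38% lower. A UMI of Ifitm1 was seen in 4.17% of MCAO and 3.23% of control monocyte-like cells after thinning to 1000 UMIs per cell, against 4% of MCAO and 4.17% of control B cell-like cells, so this level is at that of a class that should lack the transcript. The lower Ifitm3 level in MCAO cells was seen in each of the 3 monocyte-like clusters. It was 45.6 in MCAO and 54.7 in control cells of cluster 3 (led by Vcan and Ccr2), 24.5 and 32.0 in cluster 9 (led by Itga1 and F13a1), and 39.8 and 61.3 in cluster 17 (led by Ace and Cd300e). Cluster 17 held 46 MCAO and 66 control cells, was named by marker score, and gave a ratio of 0.650 [0.591-0.714]. Its cells also held unequal amounts of neutrophil transcripts, with Ngp at 91.8 in MCAO and 13.2 in control cells. The list of monocyte markers summed to 85.6 in MCAO and 120 in control cells of cluster 17. The part of these differences in the Ifitm3 ratio of cluster 17 was not tested.

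Macrophage-like cells were few, with 69 from the MCAO and 94 from the control library, and 1 member was past 1.5-fold upward and 1 downward, where 8.13% of 2939 genes were higher and 16.3% lower. Ifitm6 was at 43.8 [41.7-45.9] in MCAO and 23.4 [22.0-24.9] in control cells, beside the neutrophil transcripts given above. Ifitm1 was at 0.679 [0.443-0.994] in MCAO and 1.31 [0.989-1.71] in control cells, from 26 and 55 UMIs. As a mean over cells its log2 ratio was -0.39, no longer past 1.5-fold. An Ifitm1 UMI was seen in 24.6% of MCAO and 24.5% of control cells, at unequal median depths of 5198 and 3064 UMIs. After thinning the shares were 5.88% [1.63-14.4] in MCAO and 12.8% [6.32-22.3] in control cells. These were lower in MCAO cells, like the level, but the intervals overlapped. Ifitm3 had a ratio of 0.689 [0.627-0.757] and Ifitm2 of 0.926 [0.742-1.15]. In basophil or mast cell-like cells, 50 from the MCAO and 56 from the control library, Ifitm1 had a ratio of 1.23 [1.07-1.41], and the intervals of the other 3 members included 1.

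Further populations appeared at the finer resolution. Stem or progenitor-like cells (finer cluster 14, led by Cd34, Adgrl4 and Angpt1, 143 MCAO and 122 control cells) had Ifitm1 at 2.15 in the MCAO and 1.73 in the control library and Ifitm3 at 9.91 and 12.1. Conventional dendritic cell-like cells (finer cluster 24, led by Cd209a, 56 MCAO and 34 control cells) had Ifitm3 at 24.7 in the MCAO and 33.2 in the control library.

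Ifitm1 was unevenly spread among mature neutrophil-like cells. A UMI of Ifitm1 was seen in 59.3% of MCAO and 49.1% of control cells of the class, and in 42.1% [39.3-44.8] and 37.0% [34.0-40.0] after each cell was thinned to 1000 UMIs. Thinning left out 1 MCAO and 39 control cells with fewer UMIs. B cell-like cells, taken as a class that should lack the transcript, had a UMI in 4% of MCAO and 4.17% of control cells after thinning, at median depths of 2160 and 1992 UMIs, against 3083 and 2122 in mature neutrophil-like cells. In cluster 1, 43.7% of MCAO and 61.4% of control cells had 0 Ifitm1 UMIs after thinning, and 14.7% and 5.32% had 5 or more. In cluster 2, 66.2% of MCAO and 80.7% of control cells had 0, and 5.39% of MCAO cells had 5 or more, against 0 of 88 control cells, which allows a share of up to 3.41%. Basophil or mast cell-like cells had a UMI in 62.0% of MCAO and 51.8% of control cells after thinning.

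**Figure D4:**
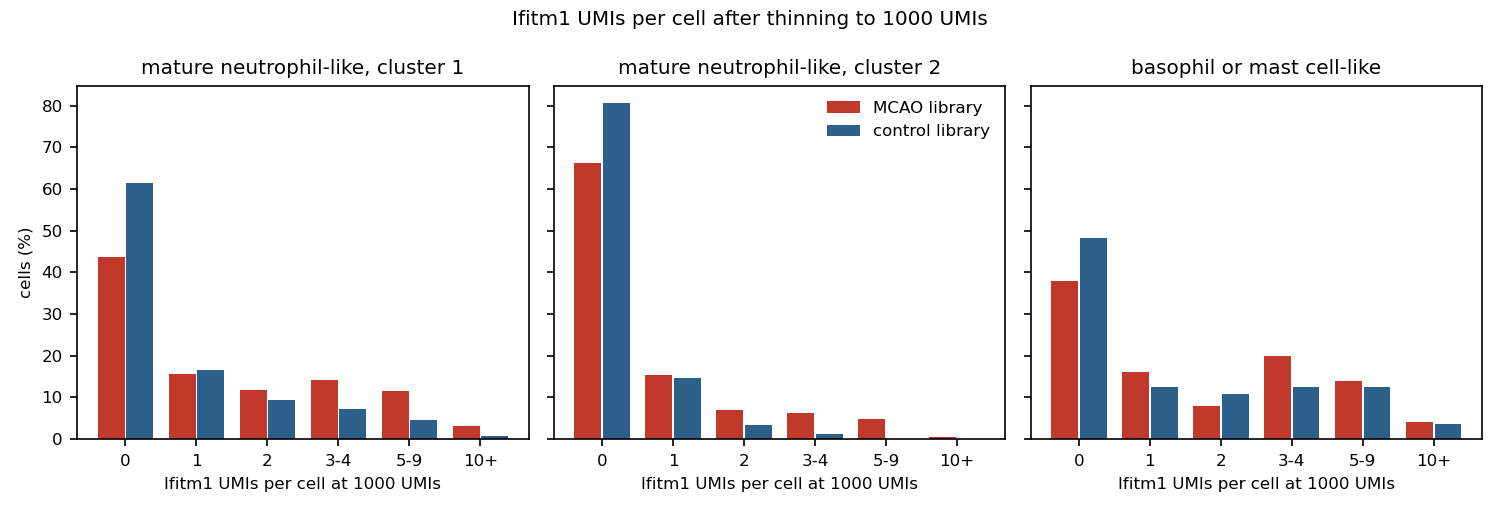
Share of cells by number of Ifitm1 UMIs after thinning to 1000 UMIs per cell, for the MCAO library (red, left bars) and the control library (blue, right bars) in mature clusters 1 and 2 and in basophil or mast cell-like cells. In cluster 1, 43.7% of MCAO and 61.4% of control cells have 0 UMIs, and the bars from 2 UMIs on are higher for MCAO.

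Among MCAO cells of cluster 2, those with more Ifitm1 held fewer transcripts of immature neutrophils. Cells with 0, 1 to 4, and 5 or more Ifitm1 UMIs had Ifitm6 at 49.7, 33.7 and 20.7 UMIs per 10000. Ltf, which encodes the granule protein lactoferrin, was at 28.0, 10.3 and 3.49 in the same cells, and Il1b, which encodes a pro-inflammatory cytokine, at 3.88, 10.0 and 20.2. Ifitm3 did not follow this order, at 23.3, 21.5 and 22.1. The cells with 5 or more UMIs numbered 43. Median depths before thinning also fell over these groups of MCAO cells, at 3832, 2944 and 2377 UMIs. In MCAO cells of cluster 1 grouped the same way they were 2734, 2294 and 2061 UMIs. In control cells of cluster 2, the 71 with 0 and the 17 with 1 to 4 Ifitm1 UMIs had Ifitm6 at 35.6 and 24.1. Ltf was at 17.2 and 10.0 in these cells and Il1b at 7.18 and 5.29, and with 17 cells the order of these 2 genes is uncertain. Cluster 1 did not show this order for Ltf. It was at 6.39, 4.17 and 6.18 in MCAO cells with 0, 1 to 4, and 5 or more Ifitm1 UMIs. In control cells Ltf was at 5.33, 4.17 and 5.31. Ngp, another marker of immature neutrophils, did fall in MCAO cells of cluster 1, at 30.45, 20.2 and 16.6. In control cells of cluster 1 Ngp was at 25.8, 18.4 and 19.4. For MCAO cells of cluster 2 it was at 112.5, 46.8 and 26.3. Ifitm6 in cluster 1 was at 20.2, 15 and 15.4 in those MCAO cells and at 20.4, 14.9 and 16.7 in control cells. Il1b was at 18.3, 30.6 and 37.8 in MCAO and at 19.96, 28.5 and 34.7 in control cells of cluster 1. Cells of 1 library are not replicates.

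The other interferon response genes were mostly lower in MCAO cells. Of a list of 30 interferon response genes, 27 were measured in mature neutrophil-like cells, 20 of them were past 1.5-fold lower in the MCAO library and 0 were higher, against 8.65% and 6.86% of all genes. Their median log2 ratio was -0.89, against -0.01 over all measured genes, and their summed level was 88.8 in MCAO and 176 in control cells. Ifi27l2a, an interferon-induced gene, was at 11.8 in MCAO and 25.5 in control cells. Oasl2, of the oligoadenylate synthetase-like family, was at 12.1 in MCAO and 22.5 in control cells. Slfn5, a Schlafen family gene, was at 7.69 in MCAO and 16.95 in control cells, and Rsad2, which encodes the antiviral enzyme viperin, at 8.42 and 14.8. Of the 4 Ifitm genes, Ifitm3 alone was lower in this class, at 25.7 in MCAO and 32.4 in control cells.

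The difference in the list also went with the mix of clusters. In cluster 1, where Ifit1, Ifit3 and Ifit3b were leading genes, 0 of 27 measured list genes were past 1.5-fold in either direction. Of all 5272 measured genes of cluster 1, 5.12% were higher and 6.47% lower. The median of the list was 0.06, and its summed level was 184 in MCAO and 188 in control cells. Unlike the Ifitm genes, the list genes were not left out of the clustering, so cells may have been sorted into cluster 1 partly by them. How far this sorting set the near-equal levels was not tested. Oasl2 was at 24.1 in MCAO and 23.9 in control cells of cluster 1, and Slfn5 at 19.2 and 18.4. In cluster 2, 10 of 26 list genes were lower and 1 (Usp18, from 126 MCAO and 5 control UMIs) was higher, against 11.4% and 17.4% of all genes, with a median of -0.50 and a summed level of 49.4 in MCAO and 71.9 in control cells. Ifitm1 was higher in the MCAO library in both clusters, with log2 ratios of 1.12 and 1.52. Thinned cells of cluster 1 with 0, 1 to 4, and 5 or more Ifitm1 UMIs had the list at 182, 193 and 198 in MCAO. In control cells of cluster 1 it was at 194, 196 and 259, the last from 49 cells. In cluster 2 the list was at 51.55, 51.0 and 63.0 in MCAO cells. Control cells of cluster 2 with 0 and with 1 to 4 had it at 72.25 and 81.2.

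The list was mostly lower in the MCAO library in 4 further classes, the others not being examined. In pre-neutrophil-like cells 11 of 27 list genes were lower and 0 higher (median log2 ratio -0.57), against 3.05% of all genes lower. In immature neutrophil-like cells 12 of 29 were lower and 0 higher (-0.44), against 3.42%. In monocyte-like cells 16 of 30 were lower and 0 higher (-0.61), against 3.38%. In macrophage-like cells 17 of 25 were lower and 0 higher (-0.83), against a larger 16.3% of all genes. Ifitm3 was lower in MCAO cells in these classes too, with log2 ratios of -0.48, -0.43, -0.31 and -0.54, all smaller in size than 1.5-fold. Of 12 genes for interferon receptors and signalling, 2 were lower in mature neutrophil-like cells and 0 higher, against 8.65% and 6.86% of all genes. The lower genes included Ifnar1, a chain of the type I interferon receptor, at 0.425 in MCAO and 0.719 in control cells. In cluster 1, 0 of 11 measured genes of this list were past 1.5-fold, where 5.12% of all genes were higher and 6.47% lower.

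**Figure D5:**
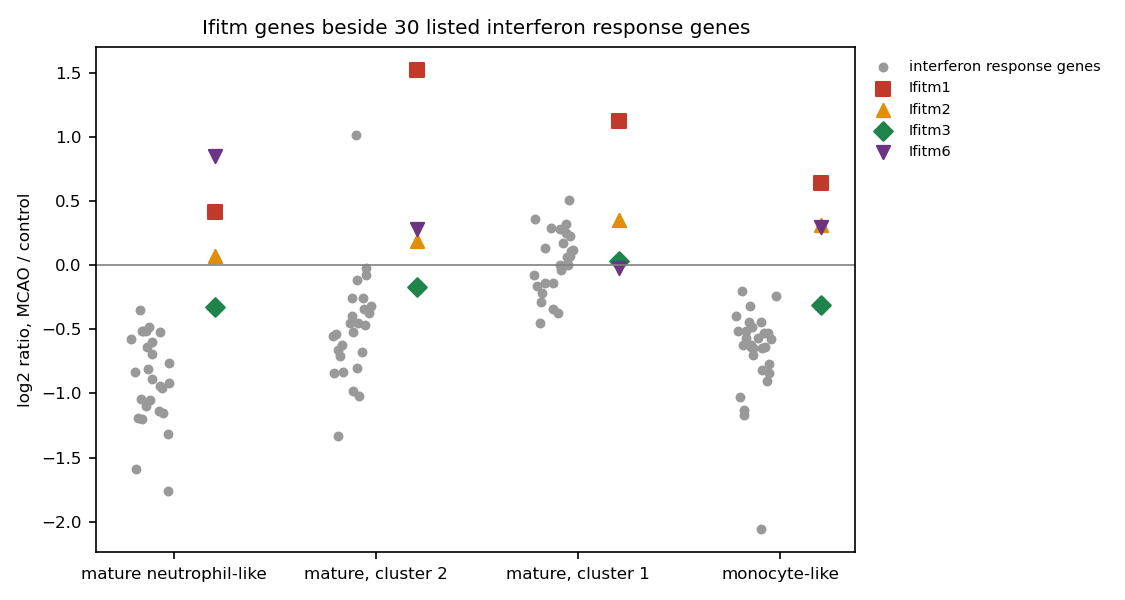
Log2 ratio of the MCAO library to the control library for the measured genes of the list of 30 interferon response genes (grey points, spread sideways at random) and the 4 Ifitm genes (coloured marks) in mature neutrophil-like cells, mature clusters 2 and 1, and monocyte-like cells. The listed genes lie below 0 in the mature class (median -0.89) and around 0 in cluster 1 (median 0.06), while Ifitm1 lies at 0.41 and 1.12.

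The genes whose levels were most like each member's differed between members. Likeness was the Pearson correlation of log2 levels (with 0.1 added) over the 26 combinations of class and library, among 8705 genes with at least 500 UMIs. It is a description, since the points share libraries and free RNA. The 5 genes most like Ifitm6 were Fpr2 (r = 0.960), which encodes a formyl peptide receptor, Ly6g (0.959), a surface marker of neutrophils, Dgkh (0.946), a diacylglycerol kinase, Cd177 (0.943), a neutrophil surface glycoprotein, and Mmp25 (0.941), a membrane metalloproteinase. Cd177 was at 20.3 in MCAO and 8.26 in control mature neutrophil-like cells, and at 38.03 and 34.1 in immature neutrophil-like cells. The 5 most like Ifitm3 were Oas1a (0.912), an oligoadenylate synthetase induced by interferon, Gpr141 (0.904), AC163018.1 (0.903), Xdh (0.889), a xanthine dehydrogenase, and Pik3r6 (0.887). Oas1a was at 1.17 in MCAO and 1.64 in control monocyte-like cells. The 5 most like Ifitm2 were Taldo1 (0.906), an enzyme of the pentose phosphate pathway, Mrpl33 (0.874), Rab31 (0.871), Furin (0.864), a protease that activates precursor proteins, and Arpc3 (0.861). Those most like Ifitm1 included Aqp9 (0.865), a water and glycerol channel, Rufy4 (0.856), Ier3 (0.845), an immediate early gene, and Fosb (0.810), a subunit of the AP-1 factor. Aqp9 was at 3.57 in MCAO and 3.91 in control basophil or mast cell-like cells, and at 1.60 and 2.56 in mature neutrophil-like cells.

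Between the members themselves, Ifitm3 and Ifitm6 had r = 0.741, Ifitm2 and Ifitm3 0.718, Ifitm1 and Ifitm2 0.589, and Ifitm2 and Ifitm6 0.540. Ifitm1 had r = 0.006 with Ifitm3 and 0.003 with Ifitm6. Neighbours on chromosome 7 thus had both high and near-zero likeness in these classes.

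The other Ifitm genes of the table had few UMIs. Ifitm10 had 293 UMIs in the MCAO and 174 in the control library, with its highest level among the compared classes in T cell-like cells, at 0.860 [0.580-1.23] in MCAO and 0.865 [0.599-1.21] in control cells, where a count of 0 would allow up to 0.0860 and 0.0763. Ifitm5, known for its role in bone mineralisation and a neighbour of Ifitm2, had 42 UMIs in the MCAO and 53 in the control library. Ifitm7 had 24 UMIs in the MCAO library and 4 in the control library.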

How the data were processed

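Marrow cells of 1 MCAO and 1 control library were analysed. Per the submitters' processing notes, fastp, STAR, UMI-tools, Seurat 4.0.6 and the mouse build mm10 were used; settings, annotation and cell filters are not stated in the sources used here. The values the authors deposited are natural log values, ln(1 + 10000 × share of the cell's UMIs), for 25943 genes and 10610 cells. Linear values summed to 10000 in each cell, and whole UMIs were recovered for 100% of values above 0 (tolerance 0.01). Column names, which are Mandarin words for stroke and control, were mapped to the libraries by translation.

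Cells were clustered together with scikit-learn 1.9.0 and leidenalg 0.10.2 (2000 variable genes without the 7 Ifitm genes, 30 principal components, 20 neighbours, resolution 1; 23 clusters), with no added cell filter and no integration. Clusters were named from 19 marker sets. Names were rebuilt here and may differ from the study's. A scoring rule that was set after the data were seen settled ties. Scrublet in scanpy 1.11.5 marked 64 MCAO (1.19%) and 62 control cells (1.19%) as doublets, which were kept and left out as an alternative. Levels have exact Poisson intervals, shares exact binomial (Clopper-Pearson) intervals and ratios exact conditional intervals, at 95%. Log2 ratios use a pseudocount of 0.02 per 10000. Genes counted as measured had at least 50 UMIs and a UMI in 2% of the cells of 1 library. Ratios were tested on simulated data. Named genes are the members, the 5 genes most like each, other Ifitm genes and up to 4 list genes with most UMIs; Usp18 and Ifnar1 were named after their values were seen, and 2 genes that these rules take are not reported here. The members and lists were chosen with earlier results of these data known.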

Additional observations from a re-analysis of the deposited data

Results flagged for a closer look

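Ifitm1 was lower in MCAO than in control macrophage-like cells, with a log2 ratio of -0.93, and higher in 12 of the 13 classes. Of these, 5 past 1.5-fold were flagged: 1.00 in B cell-like, 0.64 in monocyte-like, 1.17 in plasmacytoid dendritic cell-like, 0.65 in pre-neutrophil-like and 0.70 in promyelocyte-like cells. T cell-like cells also had 1.00, from 22 MCAO and 12 control UMIs, with an interval that included 1. All these classes had low Ifitm1 levels. After thinning, a UMI was seen in 3.69% of MCAO and 5.00% of control pre-neutrophil-like cells. These opposite directions stood out. The difference between the classes was not tested, since each class has 1 library per condition. The macrophage-like value rests on 26 MCAO and 55 control UMIs, and its median depth was 5198 UMIs in MCAO and 3064 in control cells. Per 100 UMIs of the mature neutrophil marker list, Ifitm1 was at 0.331 in MCAO and 0.570 in control macrophage-like cells, and at 1.45 and 0.738 in B cell-like cells; the part of free RNA in these levels was not tested.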

How the results depend on the processing

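The largest dependence was on which cells make up the mature neutrophil-like class. With the Ifitm genes kept in the clustering, the log2 ratios of MCAO to control in that class were 0.73 for Ifitm1, 0.21 for Ifitm2, -0.28 for Ifitm3 and 0.39 for Ifitm6, against 0.41, 0.07, -0.33 and 0.85 as reported. Cluster 1 alone gave 1.12 for Ifitm1, 0.35 for Ifitm2, 0.03 for Ifitm3 and -0.02 for Ifitm6, and cluster 2 alone gave 1.52, 0.19, -0.17 and 0.28 for the same genes in that order. With cluster 5 counted as mature, an alternative chosen after seeing the data, they were 0.78, 0.24, -0.28 and 0.35. In cells with at least 2000 UMIs, Ifitm1 was at 0.53, Ifitm2 at 0.17 and Ifitm6 at 0.71. As a mean over cells Ifitm1 was at 0.58, and at resolution 2 Ifitm6 was at 0.80. In monocyte-like cells, also chosen after seeing the data, Ifitm1 was at 1.04 within cluster 9, Ifitm2 at 0.38 and Ifitm6 at 0.23 within cluster 3, and Ifitm3 at -0.26 within cluster 3 and -0.39 within cluster 9. The number of cells from each cluster differs between these settings by construction; beyond that the cause was not tested. Of 68 alternatives for these 2 classes, 42 moved by less than the counting error and 66 kept their direction, the exceptions being Ifitm3 and Ifitm6 within cluster 1. Of 256 alternatives for the other 11 classes, 241 moved by less than the counting error and 247 kept their direction. At 2-fold in place of 1.5-fold, 10 of 27 interferon response genes were lower in mature neutrophil-like cells, and of the 5 genes most like Ifitm1, Ifitm2, Ifitm3 and Ifitm6, 3, 4, 3 and 4 were the same with 1 in place of 0.1 added. No paired analysis was possible because each group has 1 library. A level of 3 UMIs in a class is the limit that a count of 0 allows.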
